A study of Arabidopsis thaliana with 16 samples.

Results

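Class III peroxidases are secreted haem enzymes encoded by a large family of plant genes. Here 60 loci of the Arabidopsis thaliana family were followed along the root, on standard medium and after salt. A locus was used where the array's probe table held a probe set (the group of probes that reports 1 transcript) naming that gene alone, with signal above 41 in at least 2 of the 16 arrays. This held for 39 of the 60 loci, out of 13287 loci of the whole array that had a probe set of their own. A further 13 loci of the family were set beside them for comparison only.

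Seedlings of the Columbia ecotype were grown for 5 days and then moved for 1 h either to fresh standard medium or to the same medium with 140 mM NaCl. Roots were then cut into 4 successive zones along their length, starting at the tip. Zone 1 was the outermost tip of about 150 µm, and zone 2 the next 200 µm or so, up to roughly the end of the meristem. Zone 3 took a further 200 to 300 µm and stopped short of the first visible root hairs, and zone 4 was the following stretch of about 1 mm. No mutant or transgenic line was used. Each of the 8 groups, formed by 4 zones and 2 media, held 2 arrays of pooled root sections, and every zone holds several cell types.

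These enzymes act in the cell wall. With hydrogen peroxide they oxidise phenolic compounds, which joins lignin monomers and cross-links wall polymers and so stiffens the wall, and they can also generate reactive oxygen species that loosen it. In roots, members of the family are known from the lignified Casparian strip of the endodermis, from xylem, from root hairs and from the boundary between dividing and elongating cells, where the transcription factor UPB1 represses several of them. The hydrogen peroxide they use comes in part from NADPH oxidases of the plasma membrane.

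All 60 loci were accounted for. The probe table used here named no probe set for 11 of them, which were not analysed. Among these are the Casparian strip genes RCI3 and PER64, the root hair genes RHS18 and RHS19, and PRXCA and PRXCB, which supply the pathogen-induced oxidative burst. Another 6 loci lay on 4 probe sets that name several genes. Of the 43 loci with a probe set of their own, 4 did not reach the signal rule, with highest signals of 40.2 for AT5G47000, 36.7 for AT5G19890, 36.2 for AT4G17690 and 22.3 for AT5G58390. Just inside the rule, AT5G58400 passed with 45 and 41.4 on 2 arrays, and AT4G25980 with 45.2 and 41.4. AT5G58400 did not pass the slightly higher level of 41.357 required for testing, so 38 of the 39 loci were tested. A locus could pass through the group where it is high, so the counts below describe these 38 and not the family.

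Signals are compared between arrays for 1 gene at a time, since probe sets of different genes differ in brightness. Each array had been scaled by the authors to the same trimmed mean, 249.9, with array medians from 58.63 to 76.97. Across probe sets, which are not independent, the 2 arrays of a group correlated at 0.9787 to 0.9855. Differences are given as log2 differences of signal + 16, with their standard error (SE), which shrinks the change of dim genes. A gene was called changed where limma's adjusted p over all 17099 tested probe sets was under 0.05. No detection calls were used, so a signal of 41 or less may not lie above background. In whole root pieces, fewer cells of a type and less RNA per cell cannot be told apart.

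On standard medium most of these peroxidases came on behind the tip. Both standard arrays exceeded 41 already in zone 1 for 10 of the 38 genes (26.3%), against 75.6% of all tested probe sets. For 7 genes zone 2 was the first such zone, for 11 zone 3 (28.9% against 7.9%) and for 8 zone 4 (21.1% against 5.33%), while 2 had none. The standard mean was highest in zone 4 for 24 genes (63.2%, against 30.8% of all probe sets) and in zone 3 for 8 (21.1% against 19.4%). It was highest in zone 2 for 5 (13.2% against 14.1%) and in zone 1 for 1 (2.63% against 35.6%). Signal differed between the 4 standard zones for 36 of 38 genes, beside 81.5% of all probe sets. The exceptions were AT1G49570 (adjusted p = 0.287) and AT4G25980 (adjusted p = 0.964), which stayed between 10.8 and 57.9 on every array. Under NaCl 36 genes differed between zones, beside 82.2% of all probe sets. The NaCl mean was highest in zone 4 for 19 genes (50%, against 26.2% of all probe sets) and in zone 3 for 11 (28.9% against 18.7%). It was highest in zone 2 for 6 (15.8% against 15.7%) and in zone 1 for 2 (5.26% against 39.4%).

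**Figure D1:**
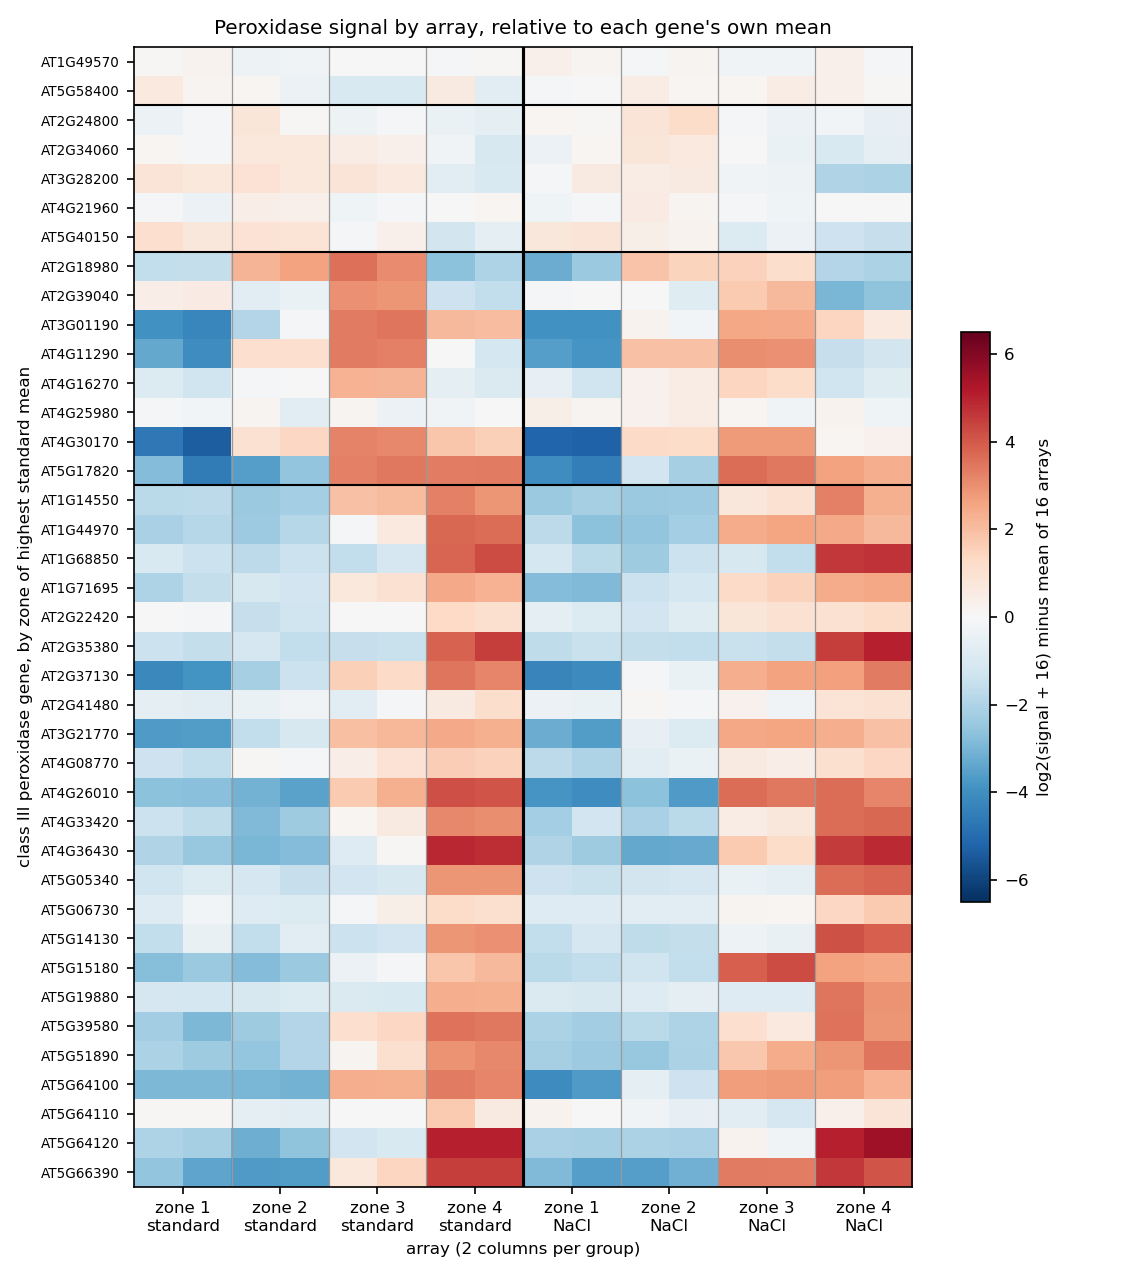
Log2(signal + 16) of each of the 39 used peroxidase genes (rows) on each of the 16 arrays (columns, 2 per group), minus that gene's mean over the 16 arrays. Rows are ordered by the zone with the highest standard mean; the block with its maximum in zone 4 holds 24 genes, and in it most genes are blue (below their mean) in zones 1 and 2 and all are red (above it) in standard zone 4.

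Step by step from the tip, 14 of 38 genes changed from zone 1 to zone 2 (10 higher and 4 lower), beside 34.5% of all probe sets, 15.5% higher and 19% lower. From zone 2 to zone 3, 26 changed, 24 of them upwards, beside 54.2% of all probe sets, 26.4% higher and 27.8% lower. From zone 3 to zone 4, 32 changed (23 higher and 9 lower), beside 45% of all probe sets, 24% higher and 21% lower. The median step over the 38 genes was -0.01, 1.89 and 1.11 on the log2 scale in turn, and over all probe sets -0.12, 0.00 and 0.05.

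The Casparian strip genes, which lignify the diffusion barrier of the endodermis, had 3 of 5 listed members measured, and these did not share a zone. PRX72 (AT5G66390) gave standard signals of 21.2 and 4.06 in zone 1, 0.846 and 1.38 in zone 2, 328 and 549 in zone 3, and 4882 and 4914 in zone 4. It was low in every array of zones 1 and 2, intermediate in zone 3 and high in zone 4, with steps of 4.69 ± 0.30 (SE, adjusted p = 1.23e-09) and 3.48 ± 0.30 (adjusted p = 5.09e-08). AT1G44970 followed the same order, with 17.5 and 24.7, 12.4 and 24.4, 120 and 210, and 1953 and 1801 in zones 1 to 4. AT4G11290 instead had its maximum in zone 3. Its standard arrays read 13 and 2.26 in zone 1, 610 and 621 in zone 2, 3069 and 2883 in zone 3, and 273 and 116 in zone 4, so that it rose by 4.78 ± 0.27 (adjusted p = 9.14e-10) into zone 2 and fell by 3.93 ± 0.27 (adjusted p = 4e-09) from zone 3 to zone 4. AT4G11290 is also on the list of genes repressed by UPB1.

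The other UPB1-repressed genes came on with distance from the tip as well. AT4G16270 read 50.1 and 33 in zone 1, 94.4 and 104 in zone 2, 560 and 534 in zone 3, and 60.5 and 47.1 in zone 4, with both zone 3 arrays above all others. AT5G17820 read 66 and 8.82, 32.2 and 82, 5595 and 6170, and 5667 and 6012 in the 4 zones. Its rise from zone 2 to zone 3 was 6.42 ± 0.41 (adjusted p = 1.31e-09), and zones 3 and 4 differed by only -0.01 ± 0.41 (adjusted p = 0.987). The list's 3 members thus all rose from zone 2 to zone 3, as did 24 of the 38 genes and 26.4% of all probe sets. Of the 3, 2 fell from zone 3 to zone 4, as did 9 of the 38 genes and 21% of all probe sets.

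Genes known from root hair growth, 3 of 7 measured, rose before the zone where hairs are visible. AT4G26010 read 32.7 and 31.1, 19.9 and 11.8, 966 and 1521, and 5652 and 5226 in zones 1 to 4 of standard roots. AT5G64100 read 71.8 and 71.3, 69 and 64, 3429 and 3268, and 6983 and 5992, and AT5G39580 read 14.7 and 3.42, 14.4 and 23.2, 305 and 361, and 1707 and 1561. All 3 rose from zone 2 to zone 3, by 5.28 ± 0.27, 5.35 ± 0.20 and 3.33 ± 0.25, and again from zone 3 to zone 4 (largest adjusted p of the 6 steps 0.000984). At these steps 24 and 23 of the 38 genes rose, beside 26.4% and 24% of all probe sets. Of the 4 measured markers of root hair cells, 3 rose from zone 2 to zone 3, the expansins EXPA7 (5.70 ± 0.26) and EXPA18 (5.08 ± 0.22) and, by less, SCN1 (1.04 ± 0.14), which fell again into zone 4 (-0.53 ± 0.14, adjusted p = 0.00538). XTH26 did not pass there (0.14 ± 0.28, adjusted p = 0.711) and rose into zone 4 (3.22 ± 0.28, adjusted p = 7.72e-08).

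Genes known from lignifying tissue had 4 of 5 members measured and all 4 rose from zone 3 to zone 4. So did 23 of the 38 genes and 24% of all probe sets. PRX52 (AT5G05340), which takes part in xylem lignification, read 18.3 and 28.9, 23.2 and 14, and 18.5 and 23.9 in standard zones 1 to 3 and 593 and 601 in zone 4, a step of 4.05 ± 0.21 (adjusted p = 1.13e-10). AT5G51890 read 37.7 and 28.1, 22.1 and 42.4, 235 and 438, and 1675 and 1934. AT2G22420 read 103 and 96.6 in zone 1, fell to 25.9 and 33.4 in zone 2 (-1.35 ± 0.20, adjusted p = 6.05e-05), and read 107 and 103 in zone 3 and 280 and 231 in zone 4.

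Of the genes linked to the oxidative burst and defence, 3 of 5 were measured, each with its standard maximum in zone 4. PRX71 (AT5G64120) read 22.9 and 19.2, 1.35 and 9.95, 51.5 and 64.3, and 5234 and 5243 in zones 1 to 4, so the step into zone 4 was 6.16 ± 0.21 (adjusted p = 9.32e-13). AT2G37130 climbed at every step, from 7.5 and 12.7 through 80 and 144 and then 1226 and 993 to 4664 and 3849. AT5G39580, described above with the root hair genes, is on this list as well.

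Further genes outside these role lists had some of the widest standard ranges. AT4G30170 read 13 and 1.77 in zone 1, 1441 and 1842 in zone 2, 6792 and 6256 in zone 3, and 2468 and 2061 in zone 4, a step of 6.18 ± 0.19 (adjusted p = 4.77e-13) at the upper end of the tip. AT3G01190 read 27.6 and 19.9, 164 and 605, 7086 and 7554, and 2880 and 2689. Its arrays of zone 2 differed widely, and leaving out replicate 3 or 4 of that group moved the step from zone 1 to zone 2 from 3.08 to 3.97 or 2.19, and the step from zone 2 to zone 3 from 4.45 to 3.56 or 5.35. AT4G36430 read 34.8 and 20, 9.2 and 12.3, 94.6 and 196, and 5964 and 5511. AT2G18980 read 176 and 185, 2657 and 3619, 6924 and 4877, and 76.3 and 127, and its step from zone 3 to zone 4 (-5.66 ± 0.26, adjusted p = 3.07e-11) was the steepest fall among the 38. PRXR1 (AT4G21960) was high in every zone, between 3044 and 5382 on all standard arrays.

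After 1 h on NaCl, 23 of the 38 genes (60.5%) were called in at least 1 zone, beside 38.7% of all probe sets, and 15 in none. Zone 3 held more calls than any other zone. There 17 genes changed, 10 higher and 7 lower, beside 25.8% of all probe sets, 12.6% higher and 13.2% lower. Zone 1 had 6 calls, 1 higher and 5 lower, beside 9.64% of all probe sets, 5.01% higher and 4.63% lower. Zone 2 had 5, all higher, beside 11.4% of all probe sets, 6.19% higher and 5.2% lower. Zone 4 had 8, 3 higher and 5 lower, beside 12.1% of all probe sets, 5.5% higher and 6.56% lower. Outside zone 3 these counts were not stable. The zone 4 count was 3 with a pseudocount of 1, 15 (7 higher, 8 lower) with 64, and 4 without standard replicate 7 or without NaCl replicate 2. Zone 1 had 2 calls with a pseudocount of 64, and 3 from its own arrays alone or without its NaCl replicate 1. Zone 2 had 3 without its standard replicate 3 or its NaCl replicate 1. The median salt change of the 38 genes was -0.16, 0.21, 0.03 and -0.13 in zones 1 to 4, and that of all probe sets 0.05, 0.02, -0.01 and -0.02. Of the 36 calls in single zones, 6 had all 4 arrays at or under a signal of 41, and 15 were lost when some single array was left out.

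**Figure D2:**
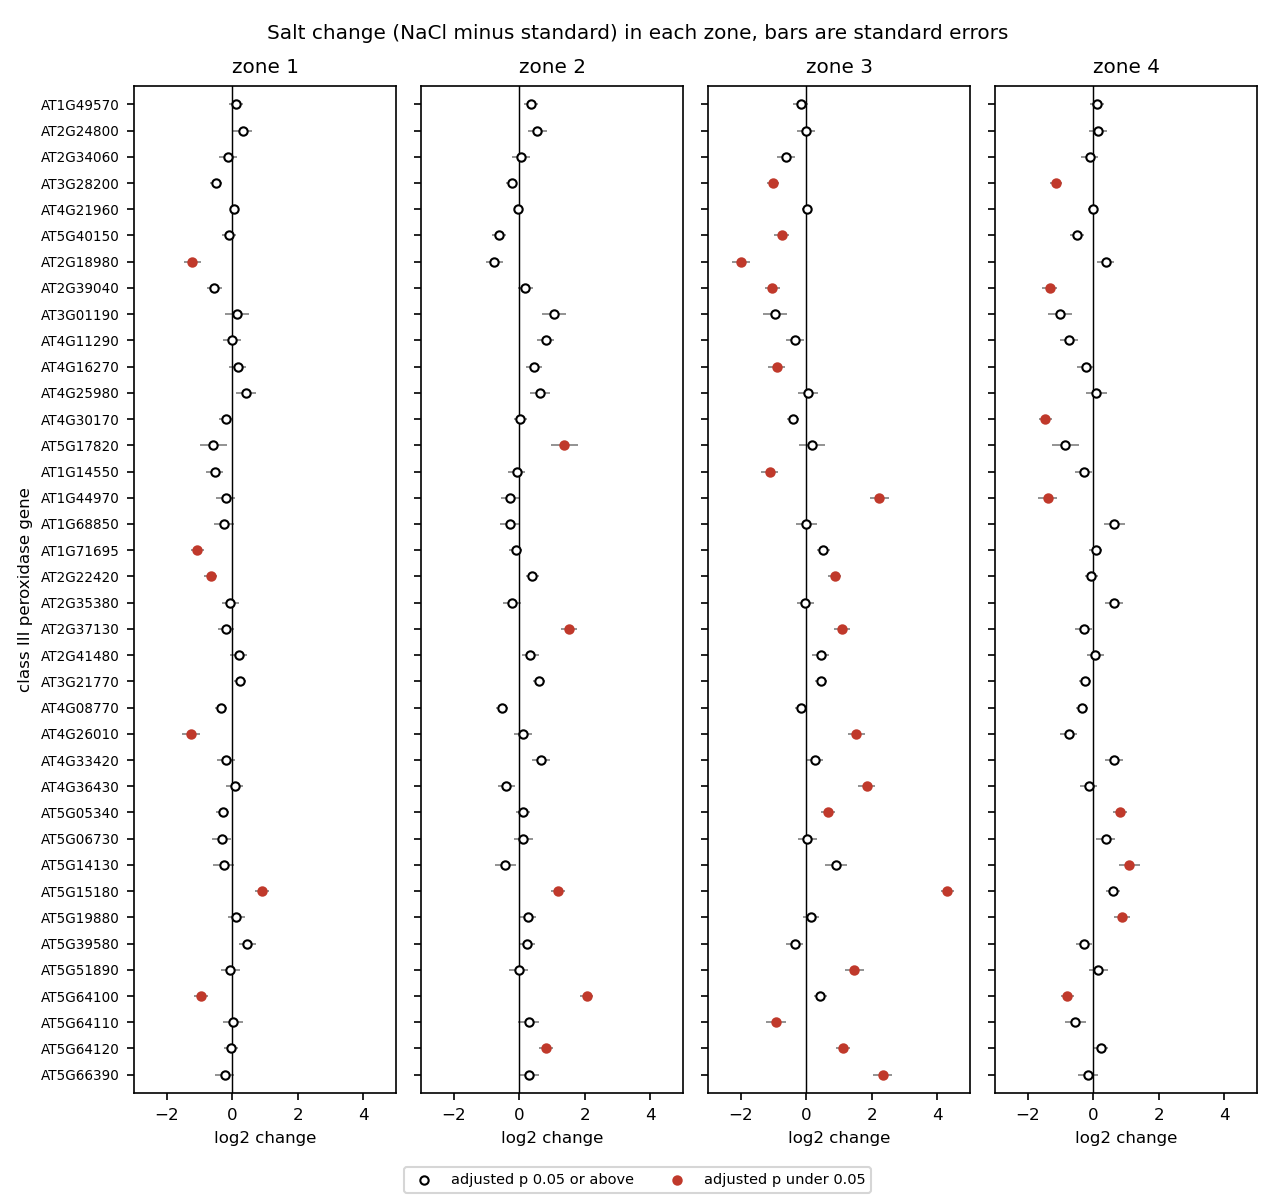
Salt change (NaCl minus standard, log2 of signal + 16) of the 38 tested peroxidase genes, one panel per zone, with bars of 1 SE and filled points where the adjusted p was under 0.05. Zone 3 has 17 filled points, from -2.0 for AT2G18980 to 4.31 for AT5G15180, and zone 2 has 5, all to the right of 0.

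The largest change was that of AT5G15180. In zone 3 its standard arrays read 88 and 110 and its NaCl arrays 1996 and 2547, a ratio of mean signals of 23.0 and a change of 4.31 ± 0.21 (adjusted p = 3.86e-10). On standard medium the gene peaked in zone 4 at 459 and 573, so that both NaCl arrays of zone 3 lay above every standard array of any zone. In zone 2 it went from 3.27 and 9.39 to 39.4 and 28.8 (1.17 ± 0.21, adjusted p = 0.00134), and in zone 1 from 4.04 and 9.42 to 24.1 and 28.3 (0.90 ± 0.21, adjusted p = 0.011), all at signals under 41. The zone 1 call was lost without standard replicate 1 (0.73, adjusted p = 0.108) and without NaCl replicate 2 (0.83, adjusted p = 0.0762). In zone 4 NaCl arrays read 818 and 759, above the standard ones, but the change of 0.60 ± 0.21 did not pass (adjusted p = 0.0744).

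Among the Casparian strip genes, 2 of the 3 measured rose in zone 3, where 12.6% of all probe sets did. Both were also more than 1 log2 unit higher in standard zone 4 than in zone 2. Of all probe sets with that profile, 33.1% rose in zone 3. AT1G44970 went there from 120 and 210 to 765 and 846, a change of 2.23 ± 0.29 (adjusted p = 2.85e-05). In zone 4 it fell from 1953 and 1801 to 803 and 612 (-1.40 ± 0.29, adjusted p = 0.00382), so that its NaCl arrays of zones 3 and 4 overlapped. Without NaCl replicate 2 of zone 4 that fall did not pass (-1.21, adjusted p = 0.0631), nor did it with a pseudocount of 1 (-1.42, adjusted p = 0.102). It was the 1 gene of 38 that rose in zone 3 and fell in zone 4, a pair of calls shared by 0.608% of all probe sets. PRX72 went in zone 3 from 328 and 549 to 2200 and 2191 (2.33 ± 0.30, adjusted p = 2.14e-05), and in zone 4 read 5208 and 3710 beside 4882 and 4914 (-0.16 ± 0.30, adjusted p = 0.82). AT4G11290 read 2396 and 2275 under NaCl in zone 3 against 3069 and 2883, a change of -0.35 ± 0.27 that did not pass (adjusted p = 0.398). None of the endodermis markers fixed for comparison had a probe set of its own in the table, so endodermal content was not measured.

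All 4 measured genes of lignifying tissue rose in zone 3, where 12.6% of all probe sets did. All 4 were also more than 1 log2 unit higher in standard zone 4 than in zone 2. Of all probe sets with that profile, 33.1% rose in zone 3. Besides PRX72, AT5G51890 went from 235 and 438 to 733 and 1141 (1.46 ± 0.29, adjusted p = 0.00122), and AT2G22420 from 107 and 103 to 188 and 221 (0.87 ± 0.20, adjusted p = 0.00381). PRX52 went from 18.5 and 23.9 to 46.6 and 38.2 in zone 3 (0.65 ± 0.21, adjusted p = 0.029) and from 593 and 601 to 1000 and 1141 in zone 4 (0.82 ± 0.21, adjusted p = 0.0144). Both PRX52 calls were lost without single arrays, in zone 3 without standard replicate 5 (0.55, adjusted p = 0.166) or either NaCl array (0.55 and 0.75, adjusted p = 0.164 and 0.057). In zone 4 the same happened without either standard array (0.81 and 0.83, adjusted p = 0.0892 and 0.0672) or NaCl replicate 2 (0.73, adjusted p = 0.139). AT2G22420 also fell in zone 1, from 103 and 96.6 to 64.6 and 49.6 (-0.67 ± 0.20, adjusted p = 0.0431). That call was lost without any single one of the 4 arrays of zone 1 (adjusted p from 0.0651 to 0.252) or of the 4 of zone 3 (adjusted p from 0.0521 to 0.0534).

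The root hair genes did not move as a group. AT4G26010 rose in zone 3, from 966 and 1521 to 3830 and 3268 (1.53 ± 0.27, adjusted p = 0.00041), and fell in zone 1, from 32.7 and 31.1 to 5.28 and 2.47 (-1.27 ± 0.27, adjusted p = 0.00564), where all 4 signals lay under 41. AT5G64100 rose in zone 2, from 69 and 64 to 424 and 252, a change of 2.06 ± 0.20 (adjusted p = 4.26e-06). In zone 1 it fell from 71.8 and 71.3 to 22.9 and 36.1 (-0.96 ± 0.20, adjusted p = 0.006), and in zone 4 from 6983 and 5992 to 4330 and 3169 (-0.80 ± 0.20, adjusted p = 0.0145). The zone 1 fall was lost without NaCl replicate 1 (-0.75, adjusted p = 0.0885), and the zone 4 fall without standard replicate 7 (-0.69, adjusted p = 0.132) or NaCl replicate 2 (-0.58, adjusted p = 0.195). AT5G39580 was called in no zone, with changes from -0.36 to 0.46.

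Markers of root hair cells are given beside these genes. Of 11 listed markers 4 were measured, not all of them above 41 in every zone. In zone 2, where AT5G64100 rose, none of the 4 was called (0.06 to 0.55). Only SCN1 exceeded 41 on the standard arrays of zone 2 (929 and 1016). There EXPA7 read 24.7 on both arrays, EXPA18 28.7 and 19.5, and XTH26 2.23 and 1.28, which may not lie above background. EXPA7 (1.18 ± 0.26) and EXPA18 (1.01 ± 0.22) rose in zone 3. SCN1 (0.26 ± 0.14) and XTH26 (-0.06 ± 0.28, at signals of 2.16 to 3.68) did not pass there. In zone 4 all 4 fell, where 6.56% of all probe sets did. The log2 changes were -1.43 for EXPA7, -1.74 for EXPA18, -0.48 for SCN1 and -1.42 for XTH26. Their summed signal was 504 to 610 in standard zone 1, 984 to 1061 in zone 2, 5136 to 5820 in zone 3 and 8123 to 8237 in zone 4. Under NaCl it was 475 to 592, 1149 to 1271, 9641 to 10146 and 2935 to 3515. This sum adds probe sets of different brightness, so it does not measure root hair content. SCN1 alone read 444 to 536 in standard zone 1 and 929 to 1016 in zone 2, and so made up most of the sum there. EXPA18 also fell in zone 1 (-0.87 ± 0.22, adjusted p = 0.0166). Their part in the peroxidase changes was not tested.

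**Figure D3:**
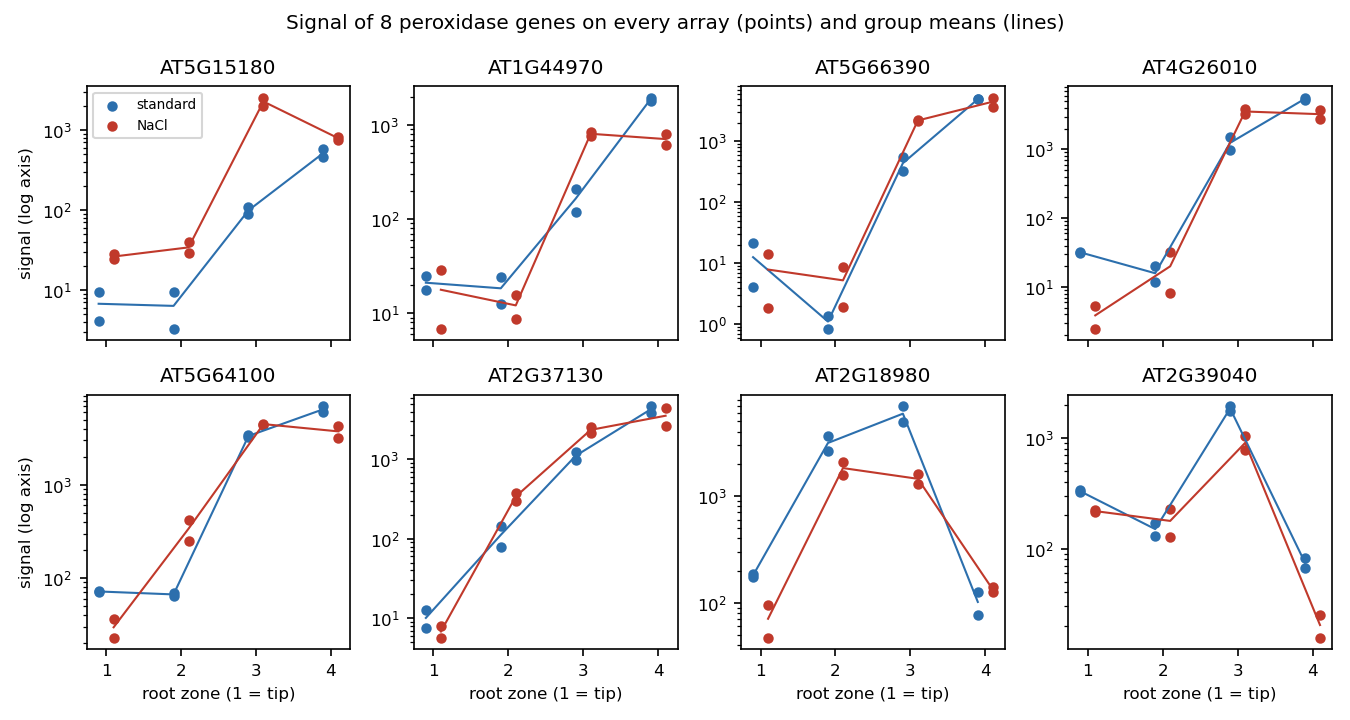
Signal on a log axis of 8 peroxidase genes in root zones 1 (tip) to 4; each point is 1 array, lines join the means of 2 arrays, blue for standard medium and red for NaCl. In zone 3 the NaCl points of AT5G15180 (1996 and 2547) lie above all its standard points, and those of AT2G18980 (1614 and 1281) below its standard ones (6924 and 4877).

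The defence-linked genes AT2G37130 and PRX71 rose in both zones 2 and 3. AT2G37130 went from 80 and 144 to 382 and 299 in zone 2 (1.51 ± 0.25, adjusted p = 0.000633) and from 1226 and 993 to 2158 and 2544 in zone 3 (1.08 ± 0.25, adjusted p = 0.00369). In both zones the NaCl arrays lay above the standard arrays. PRX71 went from 51.5 and 64.3 to 169 and 121 in zone 3 (1.11 ± 0.21, adjusted p = 0.000897), and with a pseudocount of 1 that call was lost (adjusted p = 0.0639). Its zone 2 change, from 1.35 and 9.95 to 21.4 and 20.8 (0.81 ± 0.21, adjusted p = 0.02), lay wholly under 41 and was lost without standard replicate 3 (0.52, adjusted p = 0.247) or either NaCl array (0.80 and 0.82, adjusted p = 0.0886 and 0.0779).

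Of the UPB1-repressed genes, AT5G17820 rose in zone 2, from 32.2 and 82 to 226 and 114 (1.37 ± 0.41, adjusted p = 0.0393). This was among the least stable calls, lost when any 1 of 8 arrays was left out (largest adjusted p 0.358, without standard replicate 3 of zone 2) and with a pseudocount of 1 (adjusted p = 0.135). AT4G16270 fell in zone 3, from 560 and 534 to 303 and 264 (-0.91 ± 0.25, adjusted p = 0.0125), and the call was lost without either standard array (adjusted p = 0.0764 and 0.0501) or NaCl replicate 2 (-0.82, adjusted p = 0.0939). AT4G11290 was called in no zone.

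Among genes outside the role lists, AT4G36430 rose in zone 3 from 94.6 and 196 to 627 and 449 (1.84 ± 0.26, adjusted p = 5.81e-05). AT2G18980 showed the largest fall of zone 3, from 6924 and 4877 to 1614 and 1281, a standard signal 4.08 times the NaCl one (-2.0 ± 0.26, adjusted p = 2.5e-05). It also fell in zone 1, from 176 and 185 to 47.2 and 94.3 (-1.23 ± 0.26, adjusted p = 0.00576), though not without NaCl replicate 1 there (-0.83, adjusted p = 0.103). AT2G39040 fell in zone 3 from 1950 and 1773 to 778 and 1037 (-1.04 ± 0.23, adjusted p = 0.00278) and in zone 4 from 82.5 and 66.3 to 15.6 and 24.9 (-1.33 ± 0.23, adjusted p = 0.000739). AT3G28200, whose standard steps from zone 1 to 2 and from 2 to 3 were 0.03 and -0.05, fell in zone 3 from 974 and 832 to 450 and 416 (-1.03 ± 0.18, adjusted p = 0.000437) and in zone 4 from 313 and 263 to 124 and 117 (-1.15 ± 0.18, adjusted p = 0.000327). For these 4 genes the arrays of the media did not overlap in any of the zones named. How often this held over all probe sets was not counted. With 2 arrays per group it also occurred without a call, as for AT1G49570 in zone 3 (40.9 and 41.1 standard, 34.3 and 34 NaCl).

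Other falls in zone 3 were those of AT1G14550, from 374 and 417 to 155 and 193 (-1.12 ± 0.26, adjusted p = 0.00407), and AT5G40150, from 136 and 190 to 72.1 and 108 (-0.76 ± 0.22, adjusted p = 0.018). The latter was lost without standard replicate 6 (-0.54, adjusted p = 0.177) or NaCl replicate 1 (-0.51, adjusted p = 0.201). In zone 4 AT4G30170 fell from 2468 and 2061 to 759 and 856 (-1.47 ± 0.19, adjusted p = 4.49e-05), which with a pseudocount of 1 did not pass (-1.48, adjusted p = 0.0686). AT1G71695 fell in zone 1, from 19.3 and 32.6 to 3.79 and 3.27 (-1.08 ± 0.20, adjusted p = 0.00207), all under 41.

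Besides PRX52, AT5G14130 and AT5G19880 rose in zone 4, the zone in which both first exceeded 41. AT5G14130 went from 411 and 433 to 1013 and 835 (1.10 ± 0.33, adjusted p = 0.0391) and AT5G19880 from 183 and 178 to 417 and 281 (0.87 ± 0.25, adjusted p = 0.0324). The first call was lost without any of the 4 arrays of zone 4 (adjusted p from 0.11 to 0.188). The other was lost without either standard array (adjusted p = 0.125 and 0.122) or NaCl replicate 1 (0.60, adjusted p = 0.268).

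Averaged over the 4 zones, 13 genes changed with salt, 6 higher and 7 lower, beside 30.9% of all probe sets, 15.6% higher and 15.3% lower. The largest mean changes were 1.75 ± 0.10 for AT5G15180 (adjusted p = 2e-09) and -0.91 ± 0.13 for AT2G18980 (adjusted p = 4.28e-05). PRX37 (AT4G08770) was called in no single zone, with changes from -0.54 to -0.17, and its mean of -0.35 ± 0.09 passed (adjusted p = 0.00609). At the other end, PRXR1 changed by 0.00 ± 0.07 on average (adjusted p = 0.989) and by -0.04 to 0.06 in single zones.

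The salt change itself differed between zones for 21 of the 38 genes, by limma's F test of the 4 salt contrasts, beside 18.3% of all probe sets. The count was 11 with a pseudocount of 1, 12 with no filter, 13 without the variance trend and 13 without standard replicate 5 of zone 3. The smallest adjusted p were those of AT5G15180 (1.55e-06), AT5G64100 (1.15e-05), AT1G44970 (0.000121), AT4G26010 (0.000381), PRX72 (0.00109) and AT4G36430 (0.00141). For 4 genes (10.5%) salt gave a rise in one zone and a fall in another, as for 1.97% of all probe sets. These were AT1G44970 (up in zone 3, down in zone 4), AT2G22420 and AT4G26010 (down in zone 1, up in zone 3) and AT5G64100 (down in zones 1 and 4, up in zone 2). The falls of AT1G44970, AT2G22420 and AT5G64100 were each lost without some single array. That of AT4G26010 lay wholly under 41 and was lost with a pseudocount of 64, so this count rests on unstable falls. AT5G64100 was lower in zone 1 on both NaCl arrays than on any array of the other zones, standard or NaCl.

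Zone 3 under NaCl was compared with the standard course of development, using contrasts that share no array. Across the 38 genes the salt change in zone 3 correlated with the standard difference between zones 4 and 2 at r = 0.64 (Spearman 0.66), a description over genes that share the same 8 arrays. Over all 17099 probe sets the coefficients were 0.48 and 0.48. Of 26 genes more than 1 log2 unit higher in standard zone 4 than in zone 2, 10 rose and 2 fell with salt in zone 3 (38.5% and 7.69%), against 33.1% and 6.55% of the 3957 such probe sets. Their median salt change was 0.45, against 0.36. All 10 peroxidases that rose in zone 3 thus came from the group that is higher in zone 4, and its shares lay near those of other probe sets with such a profile. Of the 5 genes lower by more than 1 unit, 3 fell and none rose (60% and 0%), against 35.3% and 1.9% of 3526 such probe sets, with a median of -0.76 against -0.35.

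**Figure D4:**
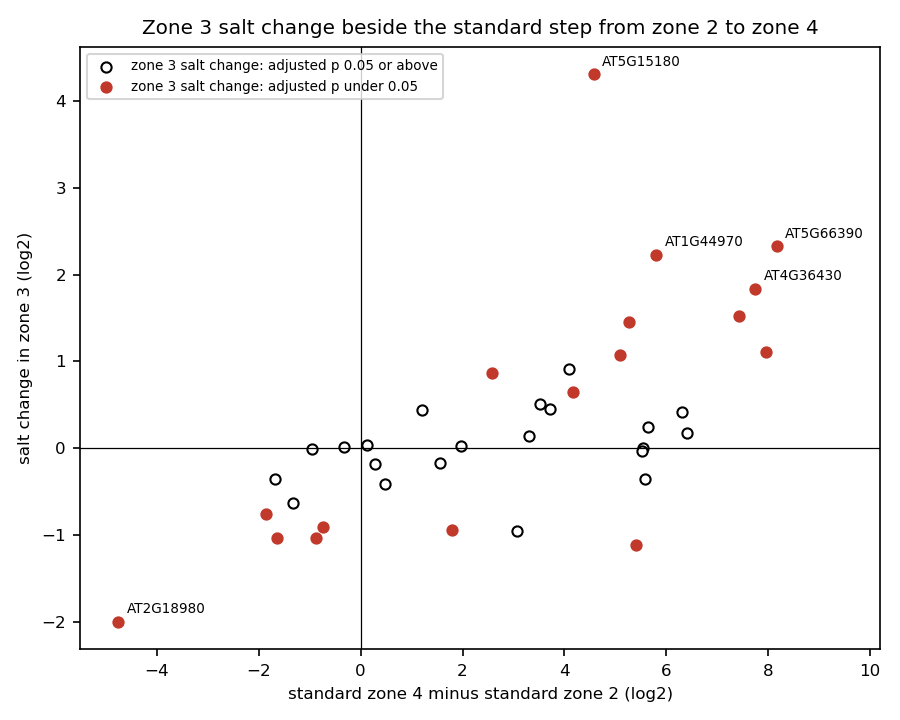
Salt change in zone 3 (y axis, log2) against the difference between standard zones 4 and 2 (x axis, log2) for the 38 tested peroxidase genes, with filled points where the salt change had an adjusted p under 0.05. Points rise from AT2G18980 at the lower left to PRX72 (AT5G66390) at the upper right, with AT5G15180 above the rest at 4.31.

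NaCl zone 3 was also set directly against standard zone 4. There 26 genes differed, 7 higher and 19 lower in NaCl zone 3, beside 36.9% of all probe sets, 17.1% higher and 19.8% lower. The NaCl mean of zone 3 lay between the standard means of zones 3 and 4 for 27 genes (71.1%, against 47.4% of all probe sets), above both for 4 and below both for 7. Where standard zones 3 and 4 were more than 1 log2 unit apart, this held for 23 of 29 genes (79.3%) and for 78.4% of all such probe sets. AT5G15180 was higher in NaCl zone 3 than in standard zone 4, by 2.10 ± 0.21 (adjusted p = 5.72e-07). PRX71 differed by -5.05 ± 0.21 (adjusted p = 2.12e-11), still far below its level in standard zone 4. AT1G68850 read 13.7 and 26.9 in standard zone 3, 27 and 13.4 in NaCl zone 3, and 1228 and 1681 in standard zone 4. AT2G35380 had the same form, with 3.16 and 3.81, 3.78 and 2.4, and 746 and 1206.

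Among neighbouring genes, AT5G64100, AT5G64110 and PRX71 (AT5G64120) follow one another on chromosome 5 in the reference annotation. The standard arrays of AT5G64110 read 32.8 and 32.6, 14.6 and 11.4, 30.8 and 30.1, and 131 and 53.7, with a rise only into zone 4 (1.12 ± 0.31, adjusted p = 0.00723). Without standard replicate 7 of zone 4, which read 131, that rise shrank to 0.59. AT5G64100 rose most from zone 2 to zone 3, and PRX71 from zone 3 to zone 4. With salt in zone 3, AT5G64110 went from 30.8 and 30.1 to 11.8 and 5.16 (-0.94 ± 0.31, adjusted p = 0.036), PRX71 rose by 1.11, and AT5G64100 read 4422 and 4557 beside 3429 and 3268 (0.42 ± 0.20, adjusted p = 0.148). The fall of AT5G64110 was lost without either standard array (adjusted p = 0.13 and 0.111) or NaCl replicate 2 (-0.74, adjusted p = 0.217). PRX37 (AT4G08770) lies next to AT4G08780 on chromosome 4, one of the 13 loci set aside for comparison. In standard zones 1 to 4 PRX37 read 261 and 217, 751 and 630, 950 and 1346, and 2134 and 1983. AT4G08780 read 44.5 and 25.7, 50 and 30.7, 109 and 131, and 841 and 934. Both rose from zone 3 to zone 4 (0.85 ± 0.18 and 2.74 ± 0.25), PRX37 also rose from zone 1 to zone 2 (1.47 ± 0.18, adjusted p = 7.23e-06), where AT4G08780 did not pass (0.14 ± 0.25, adjusted p = 0.702), and neither was called with salt in any zone. Differences between neighbours were not tested.

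The probe sets that name several loci are given as such, since their signal cannot be divided. The pair AT2G38380 and AT2G38390 shared a probe set that read 111 and 85.6 in standard zone 3 and 1859 and 3116 in zone 4, and the pair AT4G37520 and AT4G37530 one that read 880 and 821 and then 1364 and 1457. The set naming AT2G18150 together with AT2G18140 rose from 55.7 and 71.2 in zone 3 to 1710 and 1576 in zone 4 (4.39 ± 0.30, adjusted p = 4.11e-09). No salt change of these 3 sets passed in any zone (smallest adjusted p 0.0712). The set naming AT3G17070 and AT3G42570 had a highest signal of 5.14.

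Of the 13 other loci of the family, 8 were tested. AT1G34510, like AT1G44970, was called in both zones 3 and 4, from 46.8 and 88.5 to 529 and 514 in zone 3 (2.73 ± 0.22, adjusted p = 2.1e-07) and from 3200 and 2318 to 828 and 858 in zone 4 (-1.67 ± 0.22, adjusted p = 7.1e-05). AT3G49960 fell in zone 4, from 2948 and 2175 to 651 and 622 (-1.97 ± 0.18, adjusted p = 1.86e-06). AT5G24070 had its standard maximum in zone 1 and fell there from 918 and 1247 to 285 and 268 (-1.89 ± 0.24, adjusted p = 8.04e-05).

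Genes of peroxide supply, of phenolic synthesis and of other enzymes that break down peroxide or superoxide were measured for few of those listed. Of 10 NADPH oxidases 3 were tested. AT4G25090 rose in zone 3, from 73.3 and 118 to 182 and 142 (0.69 ± 0.22, adjusted p = 0.0301), and AT4G11230 fell in zone 4, from 111 and 97.6 to 55.3 and 34.4 (-1.0 ± 0.26, adjusted p = 0.0184). Of 20 genes of monolignol synthesis and polymerisation 2 were tested, and both rose in zone 3, where 12.6% of all probe sets did. Both were also more than 1 log2 unit higher in standard zone 4 than in zone 2. Of all probe sets with that profile, 33.1% rose in zone 3. HCT, an acyltransferase of the pathway, went from 1551 and 2124 to 3365 and 3336 (0.88 ± 0.16, adjusted p = 0.000496), and CCR2, a cinnamoyl-CoA reductase, from 4.39 and 6.22 to 42.7 and 57.6 (1.63 ± 0.22, adjusted p = 3.57e-05). Both standard arrays of CCR2 in zone 3 were under 41 and may not lie above background. HCT also rose in zone 2 and CCR2 in zone 4, by 0.80 ± 0.16 and 0.81 ± 0.22. Of 18 ascorbate peroxidases, catalases and superoxide dismutases, the 2 tested, SAPX and TAPX, were called in no zone. Both fell on average over the zones (-0.20 ± 0.07 and -0.44 ± 0.16), as did 15.3% of all probe sets. TAPX lay under 41 on every array of zones 3 and 4.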

How the data were processed

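Affymetrix ATH1 arrays measured total RNA from 16 samples of root sections, amplified in 2 cycles and labelled with biotin per the labels' protocols. The deposited values are MAS5 signal intensities on a linear scale, 1 per probe set, per the submitters' processing notes. The authors scaled every array to a like trimmed mean, as the values show. The 64 control probe sets were left out, and a probe set was tested where 2 or more arrays exceeded 41.357, the 40th percentile. In log2(signal + 16), 1 mean per group was fitted with limma 3.58.1 (R 4.3.3; eBayes with trend, 8 residual and 8.61 prior degrees of freedom) over 17099 probe sets, with two-sided tests and Benjamini-Hochberg adjustment. The median SE was 0.214 within a zone, so the number of arrays limits the precision. Whether the 2 replicates of a group stem from separate cultures is not given in the labels, so p-values may reflect technical spread only. The procedure was tested on simulated data.

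Members and gene lists were chosen with earlier results of these data known, and no test over a list was made. Array values are given by a rule that took the widest standard ranges, the smallest p per salt contrast and direction, and the role lists. Names come from the probe table and a reference annotation without sequences, so none is printed, and protein identity between members was not computed. As alternatives, each array was left out in turn, the pseudocount was set to 1 or 64, arrays were centred on their medians or quantile normalized, the filter was dropped or raised, the variance trend was dropped, smaller sets of arrays were fitted, and the replicate number entered as a block. Batches could not be examined, as no scan dates were at hand.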

Additional observations from a re-analysis of the deposited data

Results flagged for a closer look

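For 21 of the 38 tested peroxidases the salt change differed between the 4 zones by limma's F test, and each is given here by its adjusted p. Those whose largest salt change was a rise in zone 3 were AT5G15180 (1.55e-06), AT1G44970 (0.000121), AT4G26010 (0.000381), PRX72 (AT5G66390, 0.00109), AT4G36430 (0.00141), AT2G22420 (0.0053), AT5G51890 (0.0328) and PRX71 (AT5G64120, 0.0344). For AT5G64100 (1.15e-05), AT2G37130 (0.00221), AT5G17820 (0.0382), AT4G11290 (0.0382) and AT3G01190 (0.0196) it was an increase in zone 2, which did not pass by itself for AT4G11290 and AT3G01190. For PRX52 (AT5G05340, 0.0363) and AT5G14130 (0.0431) it was a rise in zone 4.

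Decreases led for the other 6 genes. They were strongest in zone 3 for AT2G18980 (0.0017) and AT4G16270 (0.0459), in zone 4 for AT4G30170 (0.00318), AT2G39040 (0.0135) and AT3G28200 (0.0441), and in zone 1 for AT1G71695 (0.00427). The zone 1 signals of AT1G71695 lay under 41 on all 4 arrays.

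Of the 21, the call was kept under every alternative that gave a value for AT5G15180, AT5G64100, AT1G44970, AT4G26010, AT4G36430, AT2G18980, AT2G37130, AT1G71695 and AT2G22420. For PRX72 and AT4G30170 it was lost with a pseudocount of 1 only (adjusted p = 0.146 and 0.377). For the other 10 genes, AT2G39040, AT3G01190, AT5G51890, PRX71, PRX52, AT4G11290, AT5G17820, AT5G14130, AT3G28200 and AT4G16270, it was lost when some single array was left out. Without standard replicate 5 of zone 3 the count was 13 in place of 21.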

How the results depend on the processing

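Of 240 calls made for the 38 genes over all comparisons, 194 held without any single array, 46 were lost without some array, and 41 were lost under another alternative. None of the calls with a direction reversed under any alternative. Calls that signal or salt change differed between zones came from F tests, which have no direction and so could not reverse. The calls of AT5G15180, PRX72, AT1G44970, AT4G36430, AT4G26010, AT5G51890, AT2G37130, AT2G22420, AT2G18980, AT1G14550, AT2G39040 and AT3G28200 in zone 3 were kept under every alternative that gave a value. Zone 1 had 2 calls with a pseudocount of 64 and 3 from its own 4 arrays. Zone 4 had 3 with a pseudocount of 1 and 15 (7 higher, 8 lower) with 64. The count of genes whose salt change differed between zones was 11 with a pseudocount of 1, 12 with no filter and 13 without the variance trend. Counts when single arrays were left out ranged from 3 to 6 in zone 1, 3 to 7 in zone 2, 14 to 19 in zone 3, 4 to 9 in zone 4, 11 to 14 for the mean of zones and 13 to 18 for the difference between zones. For the standard steps they ranged from 11 to 16, 24 to 27 and 30 to 32, for the standard and NaCl zone tests from 35 to 36, and for NaCl zone 3 against standard zone 4 from 22 to 28. The correlation of the zone 3 salt change was 0.53 with the step from zone 1 to zone 4 in place of zone 2. A group left with a lone array was assumed to vary like the others. The causes were not tested.

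Replicate numbers are shared only by standard zone 1 and the NaCl groups. Over these 10 arrays same-numbered samples did not deviate together (10 correlations from -0.016 to 0.057). No pairing by number was thus seen, which does not show that the samples are unpaired. With the replicate number as a block, 5 genes were called in zone 1 (1 higher, 4 lower; the fall of AT2G22420 was lost, adjusted p = 0.0758) and 36 differed between NaCl zones. No member had several probe sets, so that alternative gave no value. All 4 arrays lay at or under 41 for 6 of the 36 salt calls. Further calls had both arrays of 1 medium under 41, such as AT2G39040 in zone 4 (NaCl 15.6 and 24.9), so their size is uncertain too.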
